A study of Mus musculus with 8 samples.

Results

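The 8 genes described here belong to the programme by which the FOXO transcription factors and KLF2 keep T cells at rest and in circulation. They were picked from a list of names with no threshold on their values, and are 8 of the 20172 genes in the table. Earlier results of these data were known when they were chosen, so their share of changes is no independent evidence. In order of role they are the FOXO factors *Foxo1* and *Foxo3*, the factor *Klf2* and the egress receptor *S1pr1*, the phosphoinositide 3-kinase (PI3K) brake *Pik3ip1*, the mTORC1 inhibitor *Sesn3*, the glucose uptake inhibitor *Txnip* and the glucocorticoid-induced *Tsc22d3*. RNA was sequenced from regulatory T cells (Tregs) sorted from spleens of female *Foxp3* YFP-cre mice, in which a yellow fluorescent protein joined to Cre marks the cells that use the *Foxp3* gene. Tregs with TNFR2, the second receptor for tumor necrosis factor, on their surface (TNFR2+, 4 libraries) were compared with Tregs without it (TNFR2-, 4 libraries). Both groups carried the same allele, neither had a treatment, and by the study's methods the mice were adults. The sources used here do not say outright whether the 4 libraries of a group came from separate mice, so the p-values measure the spread between these libraries, which may be technical.

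In resting T cells FOXO1 and FOXO3 are in the nucleus and switch on genes of survival, arrest and homing. When the antigen receptor or a cytokine activates PI3K, the kinase AKT phosphorylates the FOXO proteins and they leave the nucleus, so that their activity can fall with no change in their RNA. KLF2 is a zinc finger factor whose gene is a FOXO1 target and which in turn drives *S1pr1*, the receptor that leads lymphocytes out of lymphoid organs along a sphingosine 1-phosphate gradient.

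For 7 of the 8 genes, all but *S1pr1*, the RefSeq table of promoters (GRCm38.p6) held at least 1 entry, 9 promoters in all. Each ran from 250 bases before to 50 after the start. The letters GTAAACA, a FOXO core, were searched on both strands. The same was done for TGTTT, a shorter forkhead core that lies inside the reverse complement of the FOXO core, for the KLF core CACCC and for the E-box CACGTG. The FOXO core was found in 1 of the 9, that of *Txnip*, 121 bases before the start, and in 3.65% of all 32851 promoters. TGTTT was in 5 of the 9 against 50.5% of all promoters, CACCC in 6 of the 9 against 57.5%, and CACGTG in 0 of the 9 against 7.15%. A match is a run of letters and not a site shown to be bound. The promoters of *Txnip*, of *Klf2*, the other factor of the axis, and of *Sesn3*, the gene that rose, are shown 5′ to 3′ on the gene's strand. In *Txnip* (chr3:96557707-96558006, plus strand) the capitals mark CACCC, at 248 and 204 bases before the start, and then GTAAACA. In *Klf2* (chr8:72318812-72319111, plus strand) they mark CACCC read on the opposite strand, 19 bases before the start. In *Sesn3* (chr9:14276051-14276350, plus strand) they mark CACCC 194 bases before the start and the same core on the opposite strand at 70.
Txnip promoter: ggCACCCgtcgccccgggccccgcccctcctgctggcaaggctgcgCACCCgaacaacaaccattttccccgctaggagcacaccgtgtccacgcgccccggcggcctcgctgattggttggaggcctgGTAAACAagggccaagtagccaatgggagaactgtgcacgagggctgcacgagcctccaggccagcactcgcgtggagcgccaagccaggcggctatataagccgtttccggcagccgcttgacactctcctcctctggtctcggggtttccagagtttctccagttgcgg
Klf2 promoter: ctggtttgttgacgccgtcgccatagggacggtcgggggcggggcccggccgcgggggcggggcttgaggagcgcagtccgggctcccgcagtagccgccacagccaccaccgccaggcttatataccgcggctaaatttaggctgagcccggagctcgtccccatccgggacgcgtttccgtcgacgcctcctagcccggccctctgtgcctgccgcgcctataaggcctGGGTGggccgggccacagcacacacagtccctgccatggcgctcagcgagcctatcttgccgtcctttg
Sesn3 promoter: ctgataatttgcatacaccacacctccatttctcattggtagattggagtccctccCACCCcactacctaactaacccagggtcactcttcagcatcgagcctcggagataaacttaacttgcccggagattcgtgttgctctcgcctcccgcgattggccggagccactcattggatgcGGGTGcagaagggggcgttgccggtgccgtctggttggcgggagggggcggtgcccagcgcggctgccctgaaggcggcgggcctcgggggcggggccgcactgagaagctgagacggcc

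The values are normalized read counts per gene, and their sums per library were 9576920 to 11492762. *Tnfrsf1b*, which encodes TNFR2, was at 1840 to 3148 in TNFR2+ and at 1177 to 1563 in TNFR2- Tregs, in the direction of the sort. *Foxp3* was at 2812 to 3313 in TNFR2+ and 3292 to 4033 in TNFR2- libraries (log2 fold change -0.23, limma adjusted p = 0.232). *Il2ra* was also lower without passing, at 2561 to 3070 and 3219 to 3990 (-0.34, limma adjusted p = 0.0860). *Cd4* was higher without passing (0.28, limma adjusted p = 0.192). The other 3 of the 6 Treg identity markers, *Ikzf2*, *Ctla4* and *Cd3e*, passed as higher in TNFR2+ Tregs. The limma adjusted p of *Ikzf2* was 0.0507 without TNFR2- library 2. In all, 13990 genes had a mean of at least 10 and were tested with limma, and 1107 had an adjusted p under 0.05, which is 7.91% of them (633 higher in TNFR2+, 4.52%, and 474 lower, 3.39%). With library sums made equal after leaving out mitochondrial genes, *Gm26917* and *Gm42418*, 834 were higher and 358 lower. The first principal component (29.4% of the variance) separated the groups, and the second (16.7%) set TNFR2- library 3 apart from the other 7.

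Of the 8 genes, all passed the filter, 6 fell and 1 rose in TNFR2+ Tregs, and *Foxo1* did not pass. For the same 7 genes the libraries of the groups did not overlap, 6 with TNFR2+ below and 1 above. Among all genes tested, 7.29% had every TNFR2+ library below every TNFR2- library and 8.08% the reverse. The median log2 fold change of the 8 genes was -1.03, and that of all genes tested was -0.01. In bulk RNA, fewer cells that use a gene and less RNA in each cell cannot be told apart. Without TNFR2- library 3, the one that stood apart, 6 of the 8 genes passed, and the call lost was that of *Sesn3* (adjusted p = 0.0585). Without TNFR2+ library 1 or 2, 4 of the 8 passed. With variances moderated without a trend on intensity, 465 genes in all and 3 of the 8 passed, *Klf2*, *S1pr1* and *Txnip*.

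**Figure D1:**
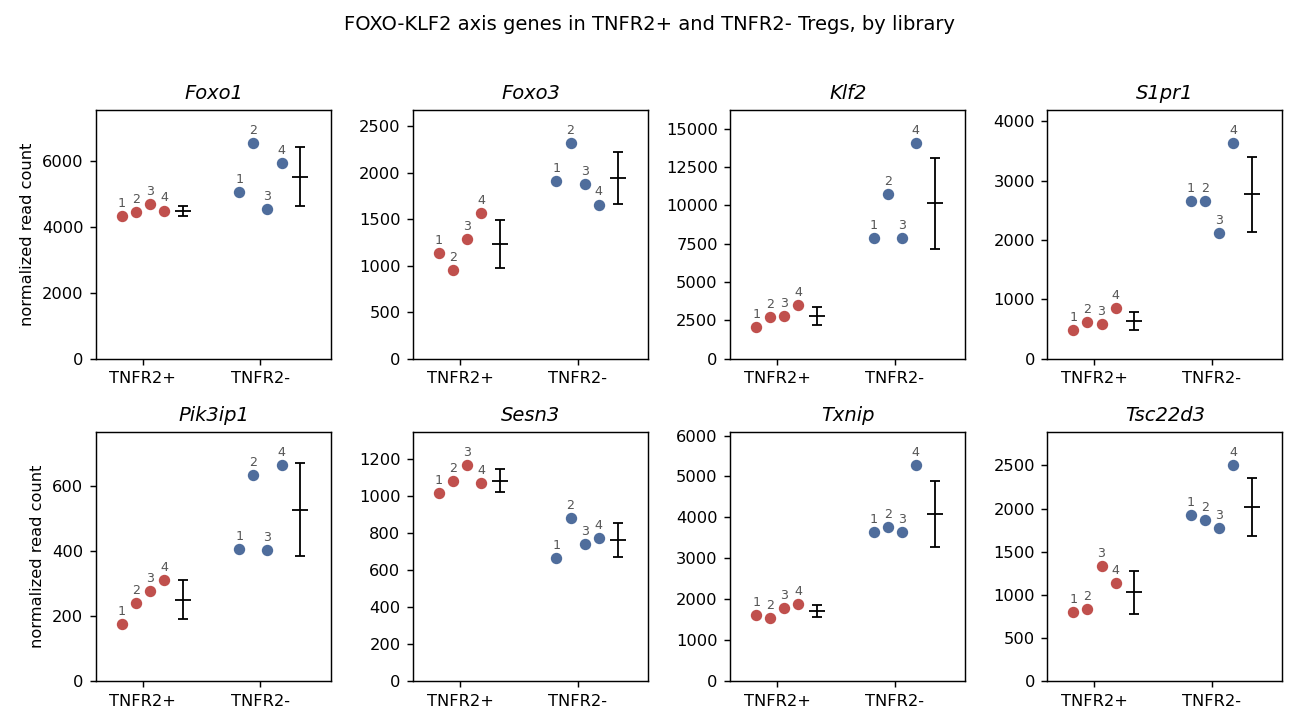
Normalized read count of each of the 8 genes (vertical axes from 0), with TNFR2+ libraries in red, TNFR2- libraries in blue, replicate numbers above the points and the mean ± SD beside them. For Klf2 and S1pr1 the highest TNFR2+ library (3499 and 853) lies far below the lowest TNFR2- library (7854 and 2124), and Foxo1 is the one gene whose groups overlap.

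*Foxo1* encodes the main FOXO factor of T cells. Its normalized counts were 4338, 4445, 4696 and 4496 in TNFR2+ libraries 1 to 4 and 5044, 6555, 4547 and 5926 in TNFR2- libraries 1 to 4. The TNFR2+ libraries lay close together, and TNFR2- library 3 fell among them. The log2 fold change was -0.28 (SE 0.12, 95% interval -0.54 to -0.02), with an adjusted p of 0.179 over all genes tested in limma and an exact permutation p of 0.0571. The fall thus did not pass the threshold, and the interval reaches a level in TNFR2+ Tregs lower by 0.54 on the log2 scale. An antisense gene that overlaps its exons, *Gm20402*, had a mean of 11.9, and *Gm38034*, inside an intron on the same strand, one of 608, and how far reads were shared is not known.

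*Foxo3*, which encodes the second FOXO factor of lymphocytes, was at 1138, 950, 1291 and 1565 in TNFR2+ libraries and at 1915, 2325, 1875 and 1659 in TNFR2- libraries. Every TNFR2+ library was below every TNFR2- library, with little room between the highest of the one and the lowest of the other. The log2 fold change was -0.67 (SE 0.16, limma adjusted p = 0.0245), a level of 63.6% of that in TNFR2- Tregs, and the exact permutation p was 0.0286, the smallest that 70 relabellings can give. The call was not firm: it was lost without TNFR2+ library 1 (adjusted p = 0.0687), 2 (0.0814) or 3 (0.0525) and without TNFR2- library 1 (0.0548) or 2 (0.0832). With any 1 library left out, the log2 fold change stayed between -0.79 and -0.55. The difference between *Foxo1* and *Foxo3* within a library was 1.88 ± 0.29 (SD, n = 4) on the log2 scale in TNFR2+ and 1.501 ± 0.24 in TNFR2- Tregs, so *Foxo3* was not shown to fall more than *Foxo1* (exact permutation p = 0.0571).

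Few of the genes that feed the FOXO factors passed the test. Of 36 tested genes of the FOXO family and of PI3K and AKT signaling, 3 fell and 0 rose, a share of 8.33% beside the 7.91% of all genes, with a median log2 fold change of -0.04. Without TNFR2- library 3, 5 fell and 1 rose. The 3 were *Pik3r5* (-1.78, adjusted p = 0.00773), a regulatory subunit of PI3K gamma, *Inpp4b* (-0.59, adjusted p = 0.00610), a phosphatase of phosphoinositides, and *Pik3cd* (-0.58, adjusted p = 0.00791), the delta catalytic subunit. Without an intensity trend these 3 calls were lost, with limma adjusted p of 0.0727, 0.0836 and 0.0849. Kinases that phosphorylate FOXO proteins did not pass the test, with log2 fold changes of 0.22 for *Akt1* (adjusted p = 0.587), 0.21 for *Akt2* (adjusted p = 0.682), -1.31 for *Sgk3* (adjusted p = 0.111) and 0.18 for *Sgk1* (adjusted p = 0.661). *Foxo4*, another family member, had a level of 192 ± 53.9 against 196 ± 73.6 (SD, n = 4 each), and the sign of its change depended on the scaling.

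*Klf2* had the highest level per kilobase of the 8 genes in each group. Its counts were 2072, 2754, 2807 and 3499 in TNFR2+ libraries against 7858, 10745, 7854 and 14094 in TNFR2- libraries. The highest TNFR2+ library was below the lowest TNFR2- library by a wide margin, and library 4 was the highest of each group. *Klf2* fell by 1.85 on the log2 scale (SE 0.19, 95% interval -2.26 to -1.43, limma adjusted p = 2.44e-04), to 27.5% of its level in TNFR2- Tregs. The adjusted p stayed between 2.04e-04 and 0.00158 when any 1 library was left out. Within libraries, *Klf2* was 0.71 below *Foxo1* in TNFR2+ Tregs (-0.71 ± 0.29, SD, n = 4) and above it in TNFR2- Tregs (0.85 ± 0.27) on the log2 scale of counts not divided by length. *Klf2* therefore fell by 1.56 more than *Foxo1* (exact permutation p = 0.0286, 0.0357 adjusted over 5 pairs).

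Some other KLF factors fell too. The median log2 fold change of the 11 tested was -0.33. Of them 4 fell and 0 rose, 36.4% against the 7.91% of all genes, and 1 rose without TNFR2- library 3. *Klf7* (-1.60, limma adjusted p = 0.00402) and *Klf3* (-1.40, adjusted p = 0.00157), a repressor, fell most among them, followed by *Klf11* (-0.76, adjusted p = 0.0305) and *Klf13* (-0.65, adjusted p = 0.00457). *Klf3* was at 350 to 741 in TNFR2+ libraries and at 1503 to 1646 in TNFR2- libraries. The call of *Klf11* was lost without any one of TNFR2+ libraries 2, 3 and 4 and TNFR2- libraries 1 and 2, with adjusted p up to 0.0890. *Klf6*, an immediate early member, was at 5581 to 8077 in TNFR2+ and 7983 to 11449 in TNFR2- libraries, and its log2 fold change of -0.45 did not pass (adjusted p = 0.0609). For 4 of the 11 the estimate was higher in TNFR2+ Tregs without passing, among them *Klf12* (2.74, limma adjusted p = 0.181) and *Klf4* (0.35, adjusted p = 0.207).

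*S1pr1* had the largest fold change of the 8 genes. It was at 488, 620, 586 and 853 in TNFR2+ libraries and at 2659, 2655, 2124 and 3644 in TNFR2- libraries. As for *Klf2*, library 4 was the highest of each group, and no TNFR2+ library came near the TNFR2- range. *S1pr1* fell by 2.12 on the log2 scale (SE 0.19, 95% interval -2.54 to -1.71, limma adjusted p = 7.90e-05), to 23.0% of its level in TNFR2- Tregs, and it passed without any 1 library (adjusted p up to 7.61e-04). The difference of *S1pr1* from *Klf2* within a library was -2.13 ± 0.10 (SD, n = 4) in TNFR2+ and -1.85 ± 0.20 in TNFR2- Tregs. *S1pr1* thus fell by 0.28 more on the log2 scale (exact permutation p = 0.0286, 0.0357 adjusted over 5 pairs), although the ranges, -2.26 to -2.04 and -2.02 to -1.56, nearly touched.

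*Cd69* encodes a membrane protein that binds S1PR1 and removes it from the cell surface. Its counts were 1936, 2213, 2252 and 2422 in TNFR2+ libraries and 1975, 2115, 2603 and 2793 in TNFR2- libraries. These ranges overlapped, and the log2 fold change was -0.09 (SE 0.14, limma adjusted p = 0.733). Within libraries *Cd69* was 1.82 ± 0.22 (SD, n = 4) above *S1pr1* on the log2 scale in TNFR2+ Tregs, and -0.21 ± 0.34 from it in TNFR2- Tregs. This difference shifted by 2.03 (exact permutation p = 0.0286, 0.0357 adjusted over 5 pairs).

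**Figure D2:**
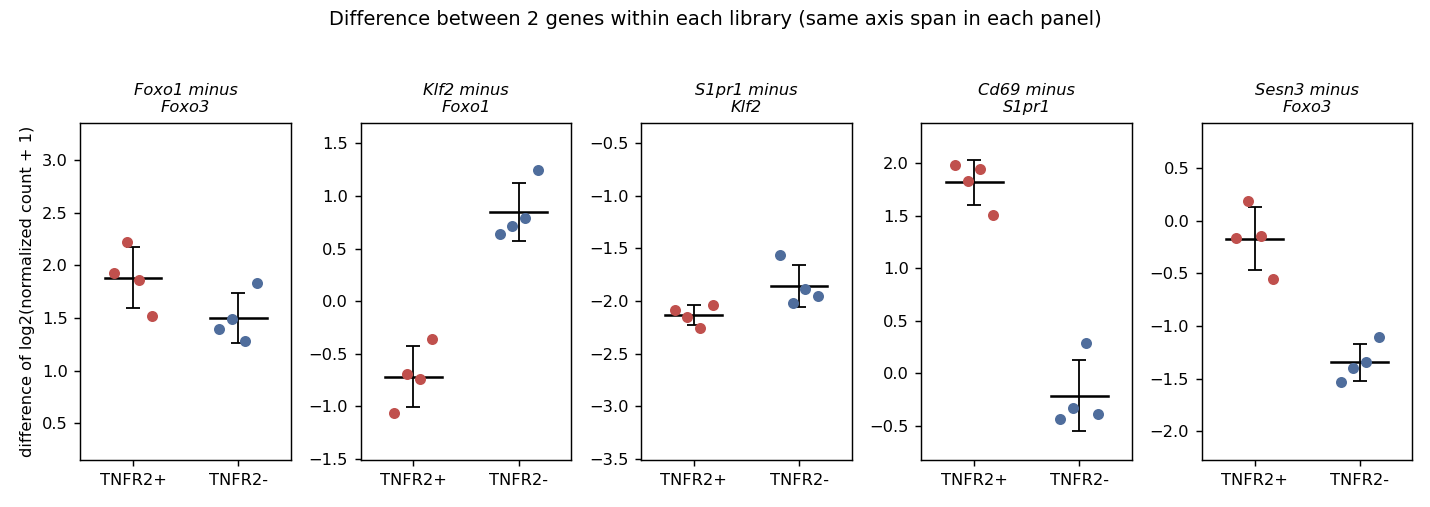
Difference between the log2(normalized count + 1) of 2 genes in each library (vertical axes, all of the same span), with TNFR2+ libraries in red, TNFR2- in blue and mean ± SD in black. Klf2 minus Foxo1, Cd69 minus S1pr1 and Sesn3 minus Foxo3 shift by 1.56, 2.03 and 1.18 between the groups, S1pr1 minus Klf2 by 0.28, and for Foxo1 minus Foxo3 the groups overlap.

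Of 26 tested genes of sphingosine 1-phosphate signaling and recirculation, 5 fell and 5 rose, 38.5% against the 7.91% of all genes, with a median of -0.05. Without TNFR2+ library 1, 2 or 3 or TNFR2- library 2, 3 rose. *S1pr4*, a second sphingosine 1-phosphate receptor, fell by 1.17 on the log2 scale (limma adjusted p = 0.0140, and 0.0528 without TNFR2- library 2). Others that fell were *Ccr7*, the receptor for chemokines of T cell zones, *Itgb7*, an integrin chain of gut homing, and *Dock2*, an activator of Rac in migrating lymphocytes. *Cxcr3*, which binds inflammatory chemokines, rose by 1.44 (adjusted p = 0.00191) and *Cxcr4*, which binds CXCL12, by 1.18 (adjusted p = 0.00300), and so did the integrin chains *Itgal* and *Itgb1* and the sphingosine 1-phosphate lyase *Sgpl1*.

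The genes whose values over the 8 libraries lay closest to those of *Klf2*, among 10244 others with a mean of at least 50, included *5830444F18Rik*, *Rnf144a*, *Dusp10* and *S1pr1*. The measure is the root mean square difference of log2 values centred on each gene's mean, 0.11 for the first and 0.19 for *S1pr1*. Those closest to *S1pr1* included *Rnf144a* (0.18), *Klf2* (0.19), *5830444F18Rik* (0.20) and *C230085N15Rik* (0.22). *Klf2* thus stood at rank 3 from *S1pr1*, and *S1pr1* at rank 5 from *Klf2*. *Txnip* stood at rank 34 and *Pik3ip1* at rank 53 from *Klf2*, while *Foxo1* stood at 1437 and *Sesn3* at 7730.

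Of 31 tested FOXO-responsive genes outside the 8, 9 fell and 3 rose, 38.7% against the 7.91% of all genes, with a median of -0.18. The number that fell was 4 or 5 without any 1 library but TNFR2- library 3, and 1 rose without TNFR2+ library 2 or 3 or TNFR2- library 2 or 4. Besides *Ccr7*, the falls included *Bcl2l11*, which encodes the death protein BIM (-1.86, limma adjusted p = 6.33e-04), and *Bach2*, a repressor of effector genes (-0.98, adjusted p = 0.0188), with those of *Irs2*, *Insr*, *Tgfbr2*, *Tcf7* and *Cdkn1b* smaller than 0.6 in size. The call of *Bach2* was lost without TNFR2+ library 2 or 4 or TNFR2- library 1 or 2, with adjusted p up to 0.0635. The genes that rose were *Ctla4*, a coinhibitory receptor of Tregs (0.89, adjusted p = 0.00120), *Tnfsf10*, the death ligand TRAIL, and *Gadd45b*, a stress-induced gene.

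**Figure D3:**
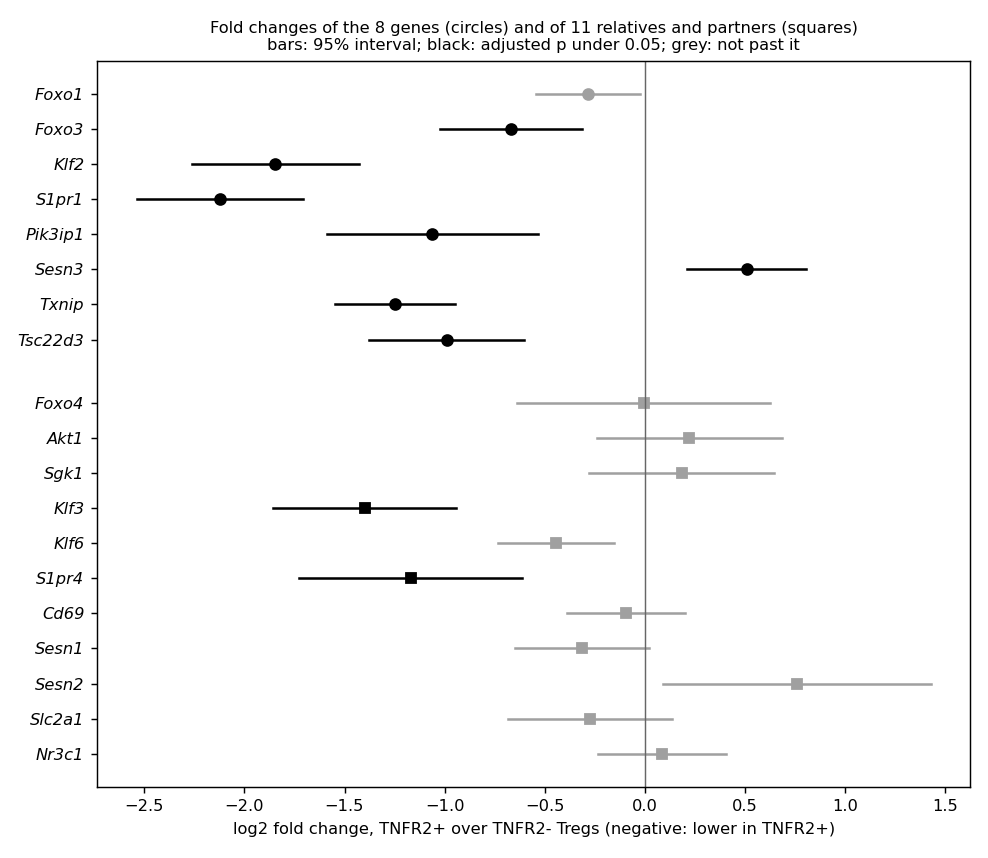
Log2 fold change of TNFR2+ over TNFR2- Tregs (horizontal axis) for the 8 genes (circles) and 11 relatives and partners (squares), with 95% intervals, in black where the limma adjusted p is under 0.05 and in grey otherwise. S1pr1 and Klf2 lie farthest to the left at -2.12 and -1.85, Sesn3 alone of the 8 lies to the right at 0.51, and of the relatives only Klf3 and S1pr4 are black.

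*Pik3ip1* encodes a membrane protein that binds and inhibits PI3K in T cells. Its counts were 174, 239, 278 and 313 in TNFR2+ libraries and 406, 636, 403 and 667 in TNFR2- libraries, which made it the gene with the fewest counts of the 8. The TNFR2- libraries formed a lower and a higher pair, and both lay above all TNFR2+ libraries. *Pik3ip1* fell by 1.06 on the log2 scale (SE 0.24, limma adjusted p = 0.0173), to 47.6% of its TNFR2- level. The adjusted p was 0.0516 without TNFR2+ library 1, 0.0509 without TNFR2+ library 2, 0.0623 without TNFR2- library 2 and 0.0525 without TNFR2- library 4. An antisense gene, *Gm12592*, overlaps its exons and had a mean of 17.9.

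*Sesn3* encodes a sestrin, a FOXO-induced protein that binds the GATOR2 complex and restrains mTORC1. It was the one gene of the 8 that rose, at 1013, 1080, 1168 and 1067 in TNFR2+ libraries and 662, 882, 737 and 770 in TNFR2- libraries. Every TNFR2+ library was above every TNFR2- library. The rise was of 0.51 on the log2 scale (SE 0.14, 95% interval 0.21 to 0.81, limma adjusted p = 0.0394). It is the least firm of the 7 calls: it was lost without any one of TNFR2+ libraries 1 to 4 or TNFR2- libraries 1, 3 and 4, with adjusted p from 0.0585 to 0.113, and passed only without TNFR2- library 2. Stretches of at least 100 bases of its transcripts match transcripts of 12 other genes at 95% identity or more, so a part of its reads may be shared. The change of *Sesn3* and that of its fellow FOXO-axis gene *Foxo3* differed by 1.18 within libraries (exact permutation p = 0.0286, 0.0357 adjusted over 5 pairs).

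The other sestrins did not pass the test. *Sesn1* was at 438 to 574 in TNFR2+ and 559 to 668 in TNFR2- libraries (log2 fold change -0.31, limma adjusted p = 0.249), and *Sesn2* at 127 to 260 and 72.2 to 148 (0.76, adjusted p = 0.158). Over the 25 tested genes of the sestrin and GATOR pathway of amino acid sensing, 0 passed in limma, and 6 had an unadjusted p under 0.05, of which 3 were higher and 3 lower in TNFR2+ Tregs, with a median of -0.02 over the list.

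*Txnip* encodes the thioredoxin-interacting protein, an arrestin-like protein that inhibits glucose uptake and whose gene responds to glucose through Mondo factors and to FOXO factors. It alone, of the 7 genes with a promoter to search, had GTAAACA there. Its counts were 1612, 1548, 1777 and 1871 in TNFR2+ libraries and 3640, 3769, 3636 and 5287 in TNFR2- libraries. The TNFR2+ libraries were tight, and TNFR2- library 4 stood above the other 3 of its group. *Txnip* fell by 1.25 on the log2 scale (SE 0.14, 95% interval -1.55 to -0.95, limma adjusted p = 3.52e-04), to 41.7% of its TNFR2- level, and passed without any 1 library (adjusted p up to 0.00221). An antisense gene, *Gm15441*, overlaps its exons and had a mean of 6.17.

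Of 12 other tested genes of arrestin-domain proteins, Mondo factors and glucose uptake, 1 rose and 0 fell, a share of 8.33% beside the 7.91% of all genes. Without TNFR2- library 1 or 3, 2 rose. The one that rose was *Txn1*, which encodes the thioredoxin that TXNIP binds, from 104 ± 33.5 to 251 ± 51.9 (SD, n = 4 each, SE of the log2 change 0.29, limma adjusted p = 0.0150, and up to 0.0605 without TNFR2+ library 1 or 2). *Slc2a1*, the glucose transporter GLUT1, was at 486 to 712 in TNFR2+ and 521 to 826 in TNFR2- libraries (-0.27, adjusted p = 0.427).

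*Tsc22d3* encodes GILZ, a leucine zipper protein induced by glucocorticoids and by FOXO factors. Its counts were 804, 838, 1331 and 1138 in TNFR2+ libraries and 1921, 1866, 1772 and 2509 in TNFR2- libraries. TNFR2+ libraries 1 and 2 lay close together and below the other pair, and the highest TNFR2+ library was below the lowest TNFR2- library. *Tsc22d3* fell by 0.99 on the log2 scale (SE 0.18, 95% interval -1.38 to -0.60, limma adjusted p = 0.00449), to 51.0% of its TNFR2- level, and passed without any 1 library (adjusted p up to 0.0201). *Nr3c1*, the glucocorticoid receptor, differed by 0.09 on the log2 scale (adjusted p = 0.785), at 1747 to 2355 in TNFR2+ and 1643 to 2461 in TNFR2- libraries. Of 22 tested genes of the TSC22 family and glucocorticoid response, *Tsc22d3* included, 4 fell and 1 rose, with a median of 0.06. That is 22.7% against the 7.91% of all genes. Without TNFR2+ library 3 or TNFR2- library 1, 2 fell, and without TNFR2- library 3, 3 rose. The other falls were *Klf13*, *Zfp36l2* and *Zfp36*, the latter pair encoding proteins that promote mRNA decay, and the rise was *Cxcr4*. *Zfp36* (-0.52, adjusted p = 0.0282) lost its call without TNFR2+ library 1, 3 or 4 or TNFR2- library 1, 2 or 3, with adjusted p up to 0.0854.

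Of 26 tested quiescence factors of T cells, 10 fell and 2 rose, 46.2% against the 7.91% of all genes, with a median of -0.41. Without TNFR2+ library 2, 4 fell, and 6 without TNFR2+ library 3 or 4 or TNFR2- library 1. *Tcf7*, *Bach2* and *Cdkn1b* were counted among the FOXO-responsive falls too. The largest falls were those of *Satb1*, a chromatin organizer (-1.92, limma adjusted p = 1.08e-04), and *Lef1*, a relative of *Tcf7* (-1.34, adjusted p = 2.38e-04). Next among those that passed came *Bach2* and *Foxp1*, a forkhead factor that competes with FOXO1 (-0.96, adjusted p = 0.00556). *Ndfip1* and *Zfp36l1* rose. Of 15 proliferation markers, 10 rose and 0 fell, 66.7% against the 7.91% of all genes, with a median of 1.66. Among those that rose was *Mki67* (2.84, limma adjusted p = 3.52e-04).

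**Figure D4:**
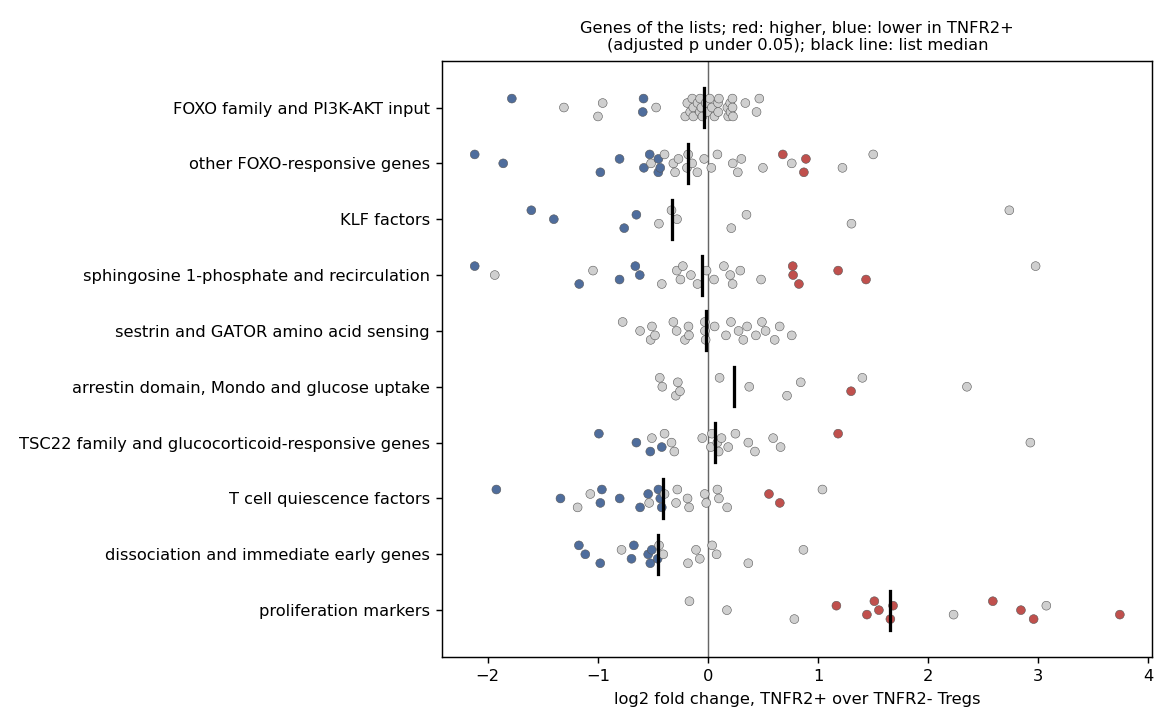
Log2 fold change of TNFR2+ over TNFR2- Tregs (horizontal axis) of each tested gene of 10 lists, with genes past an adjusted p of 0.05 in red (higher) or blue (lower), the others in grey, and the median of each list as a black line. Quiescence factors and immediate early genes have medians of -0.41 and -0.46, proliferation markers one of 1.66, and the sestrin and GATOR list has no colored gene.

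Divided by exonic length, *Klf2* and *Txnip* had the highest mean levels in each group, and the order below them differed in part. In normalized counts per kilobase, *Klf2* came first in TNFR2+ Tregs at 1507 ± 316 (SD, n = 4), followed by *Txnip* (545 ± 47.5) and *Foxo1* (519 ± 17.3), whose libraries overlapped. *Tsc22d3* (237 ± 58.0), *S1pr1* (209 ± 50.7) and *Foxo3* (163 ± 34.4) came next and overlapped among themselves, and *Sesn3* (70.9 ± 4.19) and *Pik3ip1* (58.8 ± 13.9) came last and overlapped. In TNFR2- Tregs *Klf2* was again first, at 5489 ± 1607, and *S1pr1* (910 ± 208) came after *Txnip* (1307 ± 258) and ahead of *Foxo1* (637 ± 103), *Tsc22d3* (465 ± 76.8) and *Foxo3* (257 ± 36.7). The libraries of *S1pr1* (697 to 1196) overlapped those of *Txnip* (1164 to 1693) and of *Foxo1* (525 to 756). Those of *Foxo1* also overlapped those of *Tsc22d3* (408 to 578). In TNFR2- Tregs *Pik3ip1* (124 ± 33.5) stood above *Sesn3* (49.96 ± 5.99), with no overlap of their libraries. The levels depend on the length used, and with the longest transcript in place of all exons *Tsc22d3* stood ahead of *Foxo1* in TNFR2- Tregs.

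**Figure D5:**
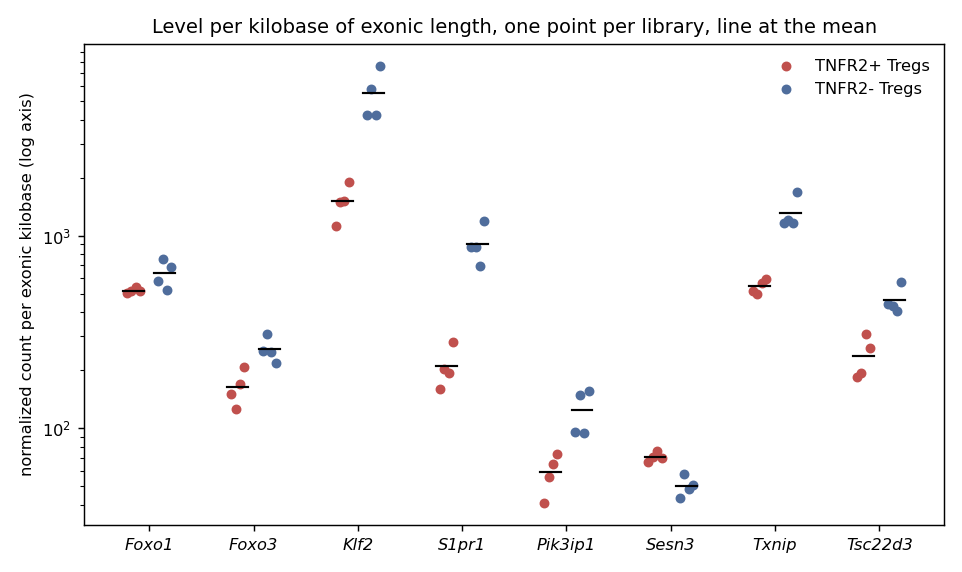
Normalized count per kilobase of exonic length (vertical log axis) of the 8 genes, 1 point per library, TNFR2+ in red and TNFR2- in blue, with a line at each mean. Klf2 is the highest gene of each group at 1507 and 5489, and Sesn3 is the one gene with the red points above the blue.

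Within each group, the same libraries were often the highest or the lowest. TNFR2+ library 4 was the highest of its group for 5 of the 8 genes and TNFR2+ library 1 the lowest for 6, and TNFR2- library 4 was the highest for 5 and TNFR2- library 3 the lowest for 6. The share of all values taken by *Gm26917* and *Gm42418*, a pair of loci rich in ribosomal RNA sequence, was also highest in library 4 of each group (8.20% and 11.4%) and lowest in TNFR2+ library 1 (6.01%) and TNFR2- library 3 (6.28%). Its part in the values of the 8 genes was not tested.

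Immediate early and dissociation genes, which rise when tissue is taken apart, moved in the same direction as 6 of the 8 genes. Of 19 tested, 9 fell in TNFR2+ Tregs and 0 rose, 47.4% against the 7.91% of all genes, with a median of -0.46. The largest changes past the test were those of *Jun* (-1.17), *Egr1* (-1.11), *Nr4a1* (-0.98) and *Fos* (-0.69). *Egr2* was higher in TNFR2+ Tregs without passing (0.87, limma adjusted p = 0.0848). The sum of the list was 93276 to 107710 in TNFR2+ and 121600 to 147700 in TNFR2- libraries, and none of its 19 tested genes was at 0 in any library. Their part in the fall of *Klf2* and the others was not tested.

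The summed B cell markers, mostly *Ighm* at 4608 ± 883 against 1912 ± 391 (SD, n = 4 each), were 3999 to 6095 in TNFR2+ and 1804 to 2946 in TNFR2- libraries, higher where *Klf2* and *S1pr1* were lower, with 5 of 6 tested genes higher in TNFR2+ Tregs, 1 of them called, and a median of 1.07. *Cd22* was at 309 ± 35.6 against 150 ± 70.6 (SD, n = 4 each, log2 difference 1.195, limma adjusted p = 0.0612), and *Cd79a*, *Pax5*, *Blk*, *Fcer2a* and *Spib* were at 0 in at least 1 library. Summed markers of CD8 T and cytotoxic cells were 228 to 364 against 137 to 322 (1 of 5 tested genes, *Nkg7*, higher), with *Gzmk* at 0 in 7 libraries. Those of myeloid and dendritic cells were 418 to 671 against 482 to 814 (1 of 6, *Xcr1*, lower, and not called without any one of 7 libraries, all but TNFR2- library 4), with *S100a9* at 0 in 7 and *Csf1r* in 6. Those of erythroid cells and platelets were 83.0 to 239 against 74.6 to 195 (0 of 2 called in limma, and 0 at an unadjusted p under 0.05). Their part in the changes of the 8 genes was not tested.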

How the data were processed

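RNA of TNFR2+ and TNFR2- Tregs was sequenced as stranded total RNA libraries (SMARTer Pico kit, Illumina sequencing). The authors checked reads with FastQC 0.11.8, trimmed them with Trim Galore, estimated transcript counts with salmon 1.3.0 on the Ensembl GRCm38 transcriptome and normalized genes with DESeq2 1.28 in R 4.0. The deposited values are this normalized signal per gene, not on a log scale and not whole reads; the step from transcripts to genes is not given in the sources used here. Libraries were grouped by their labels, and all 8 were used. Depth per library in reads is not given; sums of normalized counts stand in for it.

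Symbols and coordinates came from GENCODE M21 (20008 of 20172 identifiers matched). Since the values are not counts, log2(value + 1) was fitted with limma 3.58.1 with an intensity trend in R 4.3.3 for genes whose mean reached 10, two-sided, with Benjamini-Hochberg adjustment over all 13990 genes and a threshold of 0.05. Fold changes are on that scale and understate the change of low genes. Beside it stand exact two-sided permutation tests over 70 relabellings, with 5 within-library differences between genes adjusted over the 5. Whether same-numbered libraries were pairs is not given in the sources used here, and the main fit did not pair them. Their deviations from the group means had correlations of -0.0386 to 5e-04 over the genes, which cannot settle it.

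The genes named are the 8, the genes of each list past the threshold (values for the 4 with the largest change), a set of relatives and partners, and the 5 genes nearest to *Klf2* and to *S1pr1*. A few genes that this rule names are not reported here, but stay in the counts. The 8 genes and the lists were chosen with earlier results of these data known, so they are no independent evidence. Some lists share genes, among them *Ccr7*, *Tcf7*, *Bach2*, *Cdkn1b* and *Zfp36*, so the counts of the lists are not separate from one another. Alternatives tried were other pseudocounts, filters, scalings and variance models, a replicate block, and leaving out each library.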

Additional observations from a re-analysis of the deposited data

Results flagged for a closer look

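In TNFR2- Tregs, library 4 stood apart from the other 3 for *Txnip*: its gap to the nearest library was 0.905 of the range of log2 values of the group, above Dixon's 95% critical value for 4 samples. For the difference of *Cd69* and *S1pr1* within a library, the TNFR2- library farthest out had a gap of 0.860 of the range. In all, 2 of 28 groups checked were over the critical value, and chance flags about 1 in 20.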

How the results depend on the processing

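*Klf2*, *S1pr1* and *Txnip* passed in every fit run. Without an intensity trend, 465 genes passed (283 higher, 182 lower), and the calls of *Foxo3* (-0.67, adjusted p = 0.117), *Pik3ip1* (-1.06, 0.0754), *Sesn3* (0.51, 0.108) and *Tsc22d3* (-0.99, 0.0559) were lost; *Sesn3* was also lost with no filter (0.51, 0.0535). Without the trend the genes that fell numbered 2 each among FOXO-responsive genes, KLF factors, recirculation genes and quiescence factors and 0 each among FOXO family and PI3K-AKT genes and glucocorticoid-responsive genes, and *S1pr4*, *Klf11*, *Klf13*, *Bach2*, *Foxp1*, *Txn1*, *Zfp36*, *Ikzf2*, *Cd3e*, *Fos*, *Xcr1* and *Tnfrsf1b* lost their calls. With sums made equal without mitochondrial genes, *Gm26917* and *Gm42418*, 834 of 1192 genes passed as higher (69.97%, against 57.2% of 1107), the median of all genes was 0.08, and *Foxo4* turned to 0.083; under quantile normalization *Cd69* turned to 0.029. The replicate block, which takes same-numbered libraries as pairs, gave 1183 genes and took the call of *Sesn3* (0.51, adjusted p = 0.0512). With 4 pairs the smallest exact p is 0.125, so no within-library difference could pass (*Klf2* minus *Foxo1* -1.56, *S1pr1* minus *Klf2* -0.28, *Cd69* minus *S1pr1* 2.03, *Sesn3* minus *Foxo3* 1.18). Leaving out 1 library gave 636 to 1324 genes (339 to 777 higher, 279 to 547 lower) and log2 fold changes of -0.79 to -0.55 for *Foxo3*, -1.18 to -0.90 for *Pik3ip1*, 0.44 to 0.58 for *Sesn3* and -0.16 to 0.23 for *Foxo4*; over 1.5 times fewer genes passed without TNFR2+ library 2 (636) or 3 (693) or TNFR2- library 2 (711). With 3 libraries against 4 the smallest exact p is 0.0571, so the within-library differences could not pass (-1.68 to -1.43, -0.33 to -0.18, 1.96 to 2.20 and 1.06 to 1.303, in the order above). The number of libraries limits all calls, and *Sesn3*, *Foxo3* and *Pik3ip1* are the least firm.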
